A study of Mus musculus with 13 samples.

Results

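The genes described are 20 genes of the vacuolar ATPase (V-ATPase) and 26 genes of the lysosome, among them its membrane proteins, its hydrolases and the transcription factor gene Tfeb. They were chosen by symbol: every probe set annotated to 1 of the 46 symbols was read, and the 20 and the 26 genes were treated apart. The array carries 102 probe sets for these genes among probe sets for 18193 gene symbols, and all 46 were among the 13785 genes tested. The tumours were SM1, a transplantable BRAF-mutant mouse melanoma, grown in C57BL/6 mice that had received splenocytes by adoptive transfer. In pmel-1 recipients the donors were pmel-1 mice, in which the T-cell receptor recognises Pmel, a melanocyte protein. These mice were given dabrafenib with trametinib (the combination, 3 arrays), dabrafenib alone (2 arrays), trametinib alone (2 arrays) or vehicle (2 arrays). In control recipients the splenocytes came from C57BL/6 mice, and the tumours were from mice given the combination (2 arrays) or vehicle (2 arrays). Dabrafenib inhibits mutant BRAF and trametinib inhibits MEK, the kinase that BRAF activates. The mice of all 6 groups had thus received splenocytes of one kind or the other and bore the same tumour line, and the sources used here give neither doses nor times.

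The V-ATPase is a rotary proton pump. Its cytosolic V1 sector hydrolyses ATP and turns a ring in the membrane-bound V0 sector, which carries protons into lysosomes and, in pigment cells, also acts on melanosomes. Acid-dependent hydrolases in the lumen then break down proteins, glycans and lipids, and membrane proteins such as the LAMPs, NPC1 and the calcium channel mucolipin 1 line the organelle. Many of these genes share a short promoter element, the CLEAR motif, which is bound by the MiT/TFE factors TFEB, TFE3 and MITF. mTORC1 on the lysosomal surface phosphorylates TFEB and TFE3 and so holds them in the cytoplasm, and MITF is the lineage factor of melanocytes and melanoma cells. Macrophages are rich in lysosomes, so macrophages in a tumour bring transcripts of the same genes.

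Promoter stretches of 6 of the genes are shown because they carry the CLEAR-type motif TCACGTG in genes that did different things on these arrays. RefSeq windows of the GRCm38.p6 build, from 250 bases before to 50 bases after each transcription start, were found for 37 of the 46 genes. Capitals mark TCACGTG, which reads CACGTGA where it lies on the other strand, and each stretch is 90 bases long and given on the strand of its gene. Lamp1 (chr8:13159071-13159160, plus strand), Mcoln1 (chr8:3500429-3500518, plus strand), Atp6v0b (chr4:117887330-117887419, minus strand) and Naglu (chr11:101070004-101070093, plus strand) rose with the combination in both kinds of recipient. Glb1 (chr9:114400988-114401077, plus strand) passed the test in none of the drug comparisons, and Gla (chrX:134601166-134601255, minus strand) fell with each drug treatment in pmel-1 recipients.
Lamp1: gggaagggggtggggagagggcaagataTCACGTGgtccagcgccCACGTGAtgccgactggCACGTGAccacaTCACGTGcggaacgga
Mcoln1: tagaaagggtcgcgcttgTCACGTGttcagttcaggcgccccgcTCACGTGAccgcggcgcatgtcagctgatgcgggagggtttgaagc
Atp6v0b: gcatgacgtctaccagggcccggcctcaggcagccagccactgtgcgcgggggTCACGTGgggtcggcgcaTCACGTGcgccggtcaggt
Naglu: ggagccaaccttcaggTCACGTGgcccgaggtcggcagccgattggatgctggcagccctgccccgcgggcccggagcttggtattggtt
Glb1: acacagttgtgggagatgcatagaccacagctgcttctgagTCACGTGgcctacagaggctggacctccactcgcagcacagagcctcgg
Gla: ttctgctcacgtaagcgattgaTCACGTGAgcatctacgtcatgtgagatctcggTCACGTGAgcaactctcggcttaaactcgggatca

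The Lamp1 stretch holds 4 marked sites, those of Mcoln1, Atp6v0b and Gla 2 each, and those of Naglu and Glb1 1 each. On either strand TCACGTG was present in the windows of 14 of the 37 genes (37.8%), against 1160 of 27025 genes with a window (4.29%). It was present in 4 of 14 V-ATPase genes and in 10 of 23 lysosomal genes. The motif TCATGTG was present in 4 of 37 genes (10.8%), against 4.31% of all genes, and the shorter CACGTG, which every TCACGTG contains, in 15 of 37 (40.5%), against 8.09%. Among the genes called higher with the combination in both kinds of recipient 8 of 20 with a window held TCACGTG, and among the other genes 6 of 17. A match is a string of letters in a window, not a measured binding site.

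Values are log2 intensities normalised by the authors, and the level below which a probe set was not counted as over background was 5.79, the 40th percentile of all values. Arrays of 1 group correlated between 0.98 and 0.99 over the genes tested. Some arrays stood apart from the rest of their group. Adipocyte transcripts were high on 3 arrays (combination replicate 2, dabrafenib replicate 2 and trametinib replicate 1 of pmel-1 recipients), and skeletal muscle transcripts on 1 (vehicle replicate 3 of control recipients). The log2 ratio of 3′ over 5′ control probe sets, a sign of RNA integrity, lay between 0.60 and 1.65 on the 7 drug-treated arrays of pmel-1 recipients, between 0.19 and 0.42 on the control combination arrays, and between 0.18 and 0.28 on all vehicle arrays. It therefore moved with treatment in pmel-1 recipients, and counts with it as a covariate are given beside the results. The pigment cell gene Mitf read between 12.91 and 13.66 on every array. The labels do not say that replicates come from separate animals, so the p-values measure the spread between these arrays.

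With the combination most of the genes that changed rose, in both kinds of recipient. In pmel-1 recipients, given the combination against vehicle, 11 of 20 V-ATPase genes rose and 2 fell, with a median log2 change of 0.44, and 15 of 26 lysosomal genes rose and 3 fell, with a median of 0.47. Over all genes tested 24.3% rose and 21.2% fell in this comparison and the median change was 0.02. In control recipients, given the combination against vehicle, 12 of 20 V-ATPase genes rose and 2 fell (median 0.35), and 16 of 26 lysosomal genes rose and 0 fell (median 0.43), against 18.7% and 16.7% of all genes. A gene is said to have risen or fallen where limma's adjusted p was under 0.05 in a fit over all 13 arrays. The called rises lay between 0.28 (Atp6v0e2) and 1.41 (Mcoln1) on the log2 scale in pmel-1 recipients and between 0.30 (Atp6ap1) and 1.36 (Npc1) in control recipients.

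**Figure D1:**
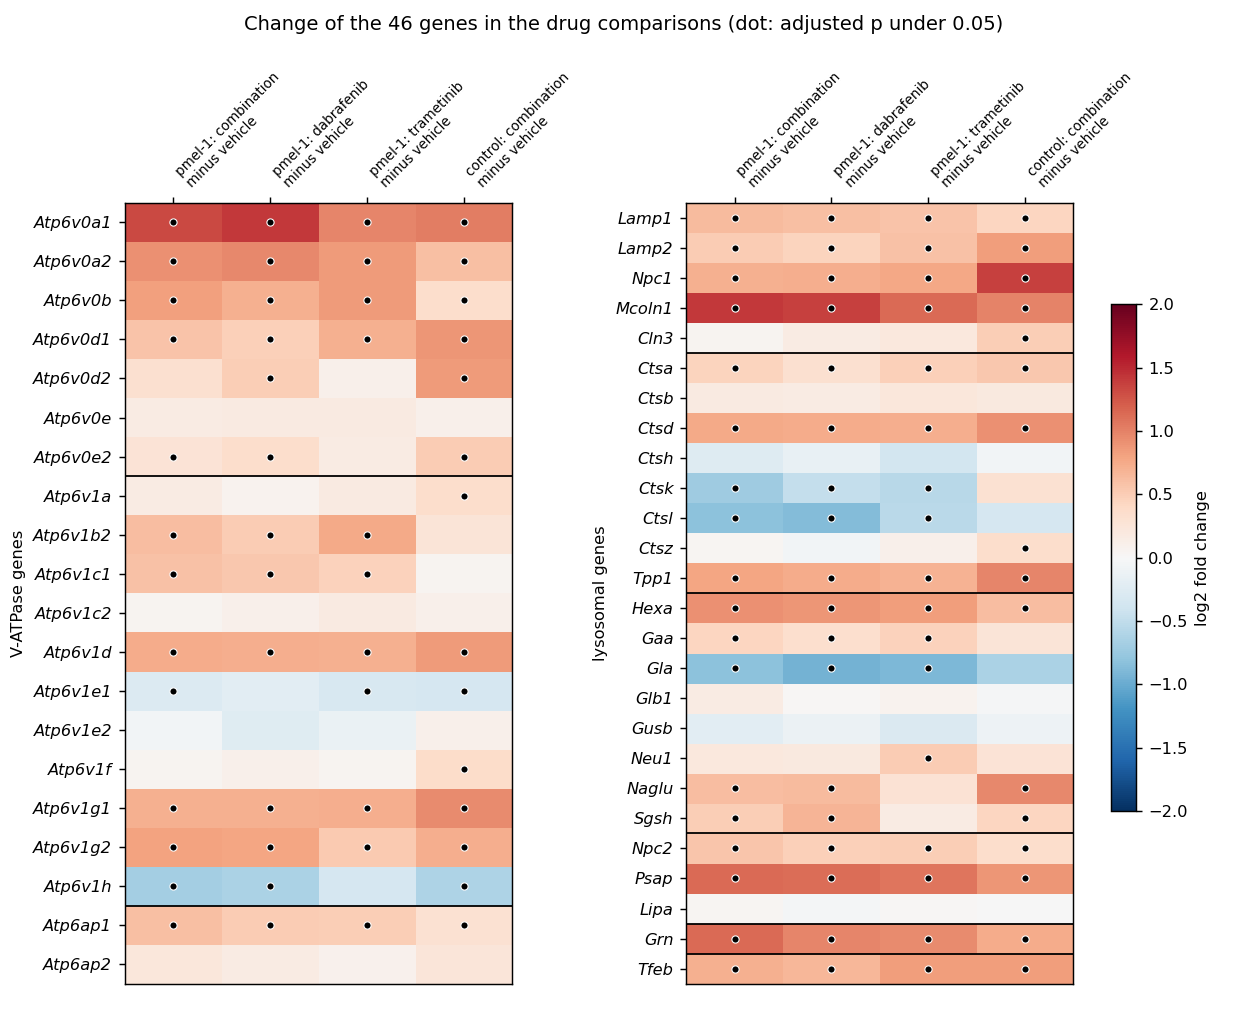
Log2 fold changes of the 20 V-ATPase genes (left) and 26 lysosomal genes (right) in 4 drug comparisons, with lines between functional classes and a dot where the adjusted p is under 0.05. Most called cells are red (higher with drug), and Ctsl, Gla, Ctsk, Atp6v1h and Atp6v1e1 are the blue ones with dots.

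The membrane sector V0, which carries the protons, had 5 of its 7 genes up in pmel-1 recipients and 6 of 7 in control recipients, and 0 down in either. For this and each class below, 24.3% of all genes rose and 21.2% fell with the combination in pmel-1 recipients. In control recipients these shares were 18.7% and 16.7%. Atp6v0a1, the a1 subunit that anchors the stator and gates the proton path, read 11.03, 11.50 and 11.24 with the combination, 11.15 and 11.57 with dabrafenib and 10.86 and 10.98 with trametinib, against 9.96 and 9.93 with vehicle in pmel-1 recipients. The readings in control recipients were 10.86 and 10.84 with the combination, against 9.86 and 9.80 with vehicle. Each drug-treated array was above each vehicle array of the same recipients. The combination raised it by 1.31 ± 0.15 (adjusted p = 5.07e-05) in pmel-1 recipients (2.49-fold) and by 1.02 ± 0.16 (adjusted p = 0.000607) in control recipients. A second, dimmer probe set of Atp6v0a1 went the other way, by −0.41 and −0.66, so the mean of its probe sets changed by 0.20 in control recipients (adjusted p = 0.147).

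Atp6v0a2, the Golgi and endosomal form of the same subunit, read 10.07, 10.11 and 10.21 with the combination, 10.02 and 10.33 with dabrafenib and 10.07 and 10.05 with trametinib, against 9.23 and 9.18 with vehicle in pmel-1 recipients. Control recipients gave 9.81 and 10.03 with the combination, against 9.44 and 9.19 with vehicle. The groups did not overlap, and the changes were 0.92 ± 0.12 (adjusted p = 0.000128) and 0.61 ± 0.13 (adjusted p = 0.00424) with the combination. Atp6v0d1, the ubiquitous d subunit that links the ring to the central stalk, read 12.84, 12.96 and 13.02 with the combination, 12.92 and 12.78 with dabrafenib and 13.06 and 13.10 with trametinib, against 12.37 and 12.39 with vehicle in pmel-1 recipients. Its values in control recipients were 13.03 and 12.87 with the combination, against 12.20 and 11.93 with vehicle. Its rise was 0.56 ± 0.11 (adjusted p = 0.00133) in pmel-1 recipients and 0.89 ± 0.12 (adjusted p = 0.000192) in control recipients, and every drug-treated array was above the vehicle arrays. Atp6v0b, a proteolipid of the proton ring, read 12.81, 12.71 and 12.57 with the combination, against 11.92 and 11.82 with vehicle, in pmel-1 recipients, and 12.22 and 12.21 with the combination, against 11.88 and 11.83 with vehicle in control recipients. It changed by 0.82 ± 0.10 (adjusted p = 0.000105) and 0.36 ± 0.11 (adjusted p = 0.0297). The control call was lost without any 1 of the 4 control arrays (adjusted p 0.076 to 0.13).

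Atp6v0d2, the d subunit form known from osteoclasts and macrophages, was near the background level throughout. It read 5.99, 6.02 and 6.28 with the combination, 6.07 and 6.47 with dabrafenib and 5.92 and 5.84 with trametinib, against 5.90 and 5.66 with vehicle in pmel-1 recipients. In control recipients it read 6.66 and 6.56 with the combination, against 5.73 and 5.79 with vehicle. The highest readings were those of the control combination arrays. Both control vehicle arrays were under the background level, so no fold is given for that comparison, which passed the test (adjusted p = 0.00125). In pmel-1 recipients 1 of the 2 vehicle arrays was also under it, so no size is given there either. The test passed with dabrafenib (adjusted p = 0.0226) but not with the combination (adjusted p = 0.0856), and the dabrafenib call was lost without dabrafenib replicate 2 (adjusted p = 0.214) as well as without vehicle replicate 2 (adjusted p = 0.156). Of the small e subunits, Atp6v0e2 rose by 0.28 ± 0.10 and 0.51 ± 0.11, while Atp6v0e changed by 0.17 ± 0.09 and 0.11 ± 0.10, neither past the test.

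The catalytic sector V1 was mixed. Of its 11 genes 5 rose and 2 fell with the combination in each kind of recipient. Atp6v1d, a part of the rotating central stalk, read 11.38, 11.69 and 11.57 with the combination, 11.54 and 11.54 with dabrafenib and 11.64 and 11.40 with trametinib, against 10.76 and 10.86 with vehicle in pmel-1 recipients. The control recipients' tumours had 11.60 and 11.35 with the combination, against 10.83 and 10.44 with vehicle. It rose by 0.74 ± 0.14 (adjusted p = 0.00151) and 0.85 ± 0.16 (adjusted p = 0.00157), with no overlap between drug-treated and vehicle arrays. Atp6v1g1, of the peripheral stalk, read 12.32, 12.77 and 12.58 with the combination, 12.45 and 12.65 with dabrafenib and 12.76 and 12.39 with trametinib, against 11.91 and 11.78 with vehicle in pmel-1 recipients. Control recipients gave 12.65 and 12.51 with the combination, against 11.75 and 11.52 with vehicle. It rose by 0.71 ± 0.15 (adjusted p = 0.00286) and 0.94 ± 0.17 (adjusted p = 0.00129). Its neuronal relative Atp6v1g2 rose by 0.80 ± 0.12 and 0.73 ± 0.13.

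Atp6v1b2, Atp6v1c1, Atp6v1a and Atp6v1f each passed the test with the combination in only 1 kind of recipient. None of them passed the test of the difference between recipients. Atp6v1f rose in control recipients, a call that was lost when at least 1 array was left out. Atp6v1b2, the B subunit, read 11.91, 11.89 and 11.69 with the combination, against 11.23 and 11.18 with vehicle, in pmel-1 recipients, a rise of 0.62 ± 0.11 (adjusted p = 0.00109). The readings in control recipients were 11.36 and 11.38 with the combination, against 11.11 and 11.12 with vehicle, a change of 0.26 ± 0.13 (adjusted p = 0.138). Atp6v1c1, the C subunit that takes part in the reversible assembly of V1 on V0, read 12.64, 12.60 and 12.50 with the combination, against 12.02 and 11.98 with vehicle, in pmel-1 recipients, and 12.20 and 12.26 with the combination, against 12.20 and 12.15 with vehicle in control recipients. The pmel-1 arrays were separated, with a change of 0.58 ± 0.09 (adjusted p = 0.000433), while the control arrays lay close together (0.06 ± 0.10 (adjusted p = 0.721)). Atp6v1a, the catalytic A subunit, changed by 0.16 ± 0.11 (adjusted p = 0.287) in pmel-1 and 0.35 ± 0.12 (adjusted p = 0.046) in control recipients. A second probe set of Atp6v1a read −1.19 in pmel-1 recipients and 0.54 in control recipients, so no direction is given for this gene in pmel-1 recipients.

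Both V1 genes that fell did so in both kinds of recipient. Atp6v1h, the H subunit that is needed for activity of the assembled pump, read 10.28, 10.41 and 10.40 with the combination, 10.44 and 10.37 with dabrafenib and 10.50 and 10.88 with trametinib, against 11.02 and 11.04 with vehicle in pmel-1 recipients. Its values in control recipients were 10.42 and 10.25 with the combination, against 11.09 and 10.81 with vehicle. Each combination array was below each vehicle array of its recipients. It fell by 0.67 ± 0.13 (adjusted p = 0.00133) in pmel-1 recipients and by 0.61 ± 0.14 (adjusted p = 0.0054) in control recipients. The control call was lost without combination replicate 3 (−0.53, adjusted p = 0.0507) or without vehicle replicate 1 (−0.47, adjusted p = 0.0521), and a second probe set changed by −0.11 and 0.09. Atp6v1e1, of the peripheral stalk, read 12.42, 12.50 and 12.46 with the combination, against 12.67 and 12.80 with vehicle, in pmel-1 recipients, and 12.35 and 12.34 with the combination, against 12.73 and 12.64 with vehicle in control recipients. Its falls were 0.28 ± 0.09 (adjusted p = 0.0195) and 0.34 ± 0.09 (adjusted p = 0.0153). The first was lost without vehicle replicate 2 (−0.21, adjusted p = 0.155), and the second without combination replicate 2, combination replicate 3 or vehicle replicate 1 (−0.35, −0.33 and −0.30, adjusted p 0.0564, 0.0735 and 0.0893). The isoform genes Atp6v1c2 and Atp6v1e2 passed the test in none of the drug comparisons. Of the accessory proteins, Atp6ap1 rose by 0.61 ± 0.10 and 0.30 ± 0.10, and Atp6ap2, also known as the prorenin receptor, changed by 0.23 ± 0.09 and 0.24 ± 0.10 without passing the test.

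**Figure D2:**
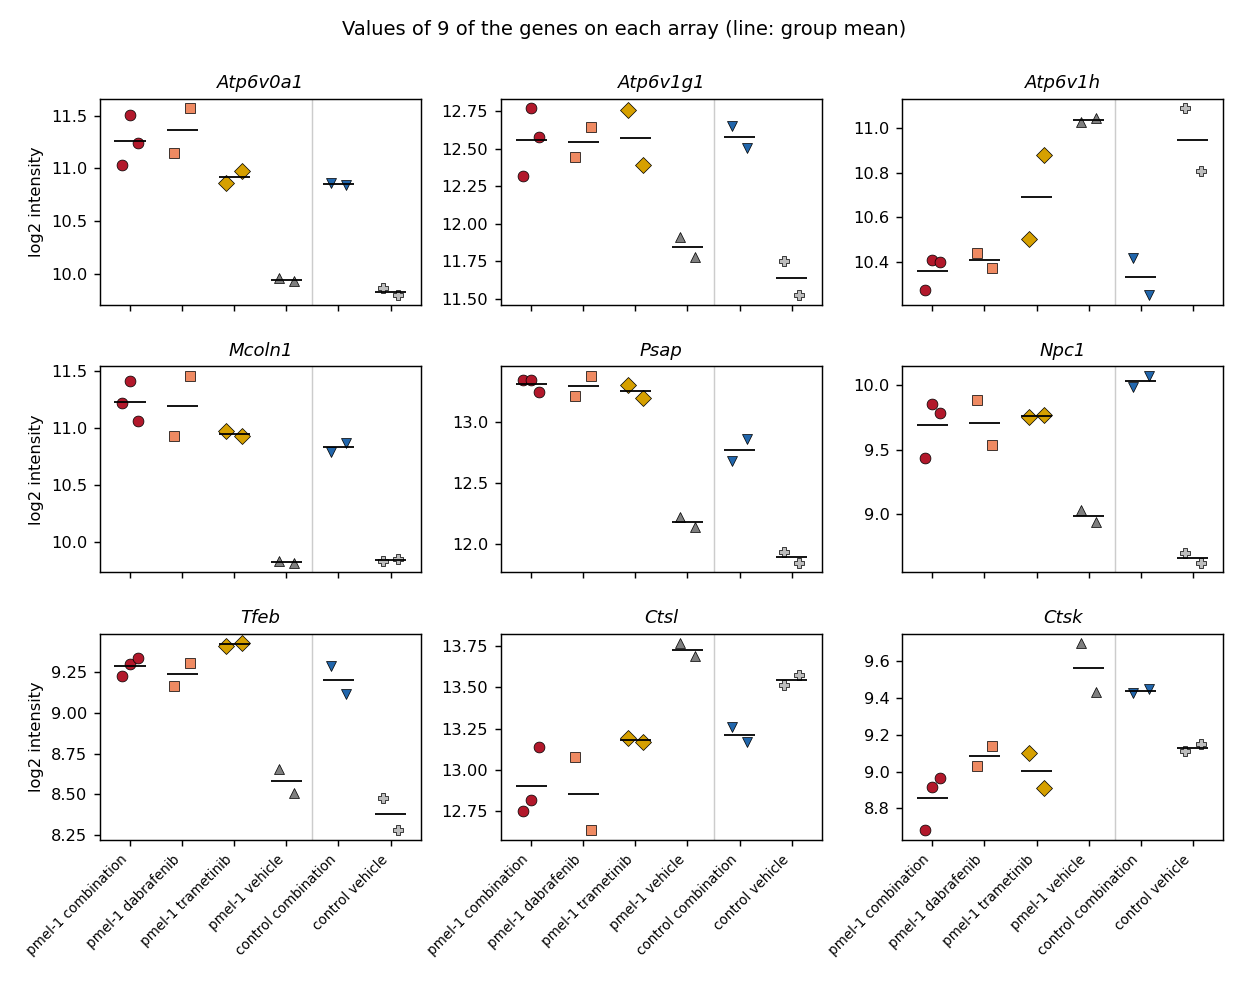
Log2 intensity of 9 genes, with 1 point per array and a line at the mean of each of the 6 groups; each panel has its own vertical scale. Atp6v0a1, Mcoln1, Psap and Tfeb are higher on every drug-treated array than on the vehicle arrays of the same recipients, and Ctsk is lower with drug in pmel-1 recipients but not in control recipients.

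The lysosomal membrane genes rose most evenly: 4 of 5 with the combination in pmel-1 recipients and 5 of 5 in control recipients. Mcoln1, the calcium channel through which lysosomes signal, read 11.22, 11.41 and 11.06 with the combination, 10.93 and 11.46 with dabrafenib and 10.97 and 10.93 with trametinib, against 9.83 and 9.81 with vehicle in pmel-1 recipients. In control recipients it read 10.79 and 10.87 with the combination, against 9.83 and 9.85 with vehicle. The drug-treated arrays were all far above the vehicle arrays. It rose by 1.41 ± 0.15 (adjusted p = 3.10e-05) in pmel-1 recipients (2.66-fold) and by 0.99 ± 0.16 (adjusted p = 0.000692) in control recipients, and its other probe sets rose as well, by 0.60 and 1.37 in pmel-1 recipients and by 0.88 and 1.01 in control recipients. Lamp1, a main glycoprotein of the lysosomal membrane, read 14.01, 14.05 and 13.91 with the combination, 13.90 and 14.02 with dabrafenib and 13.95 and 13.92 with trametinib, against 13.38 and 13.35 with vehicle in pmel-1 recipients. The control recipients' tumours had 13.69 and 13.81 with the combination, against 13.35 and 13.28 with vehicle. It rose by 0.63 ± 0.09 (adjusted p = 0.000229) and 0.43 ± 0.10 (adjusted p = 0.00544), the second no longer past the test without combination replicate 3 (0.37, adjusted p = 0.0509). Lamp2 rose by 0.50 ± 0.11 and 0.83 ± 0.13.

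Npc1, which exports cholesterol from the lysosome, read 9.44, 9.85 and 9.78 with the combination, 9.88 and 9.54 with dabrafenib and 9.75 and 9.77 with trametinib, against 9.03 and 8.94 with vehicle in pmel-1 recipients. Control recipients gave 9.98 and 10.07 with the combination, against 8.70 and 8.63 with vehicle. It was high on all drug-treated arrays and highest on the control combination arrays. The rise was 0.70 ± 0.14 (adjusted p = 0.00152) in pmel-1 recipients and 1.36 ± 0.15 (adjusted p = 6.02e-05) in control recipients, and the difference between these effects did not pass the test (-0.66 ± 0.20 (adjusted p = 0.17)). Cln3, a membrane protein mutated in juvenile Batten disease, read 8.11, 8.32 and 8.26 with the combination, against 8.16 and 8.20 with vehicle, in pmel-1 recipients, where the groups overlapped (0.05 ± 0.11 (adjusted p = 0.739)). The readings in control recipients were 8.29 and 8.40 with the combination, against 7.94 and 7.76 with vehicle and rose by 0.49 ± 0.12 (adjusted p = 0.00635). That call was lost without combination replicate 3 (0.44, adjusted p = 0.0537) or vehicle replicate 3 (0.40, adjusted p = 0.062).

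The proteases moved both ways in pmel-1 recipients. With the combination 3 of 8 rose and 2 fell there, against 24.3% and 21.2% of all genes. In control recipients 4 rose and 0 fell, against 18.7% and 16.7% of all genes. Ctsd, the aspartic protease cathepsin D, read 12.15, 12.40 and 12.36 with the combination, 12.25 and 12.33 with dabrafenib and 12.27 and 12.29 with trametinib, against 11.61 and 11.49 with vehicle in pmel-1 recipients. Its values in control recipients were 12.18 and 12.22 with the combination, against 11.31 and 11.26 with vehicle. It rose by 0.75 ± 0.10 (adjusted p = 0.000112) and 0.92 ± 0.11 (adjusted p = 8.19e-05), with every drug-treated array above the vehicle arrays. Tpp1, a tripeptidyl peptidase, read 12.30, 12.54 and 12.63 with the combination, 12.44 and 12.45 with dabrafenib and 12.52 and 12.29 with trametinib, against 11.75 and 11.67 with vehicle in pmel-1 recipients. In control recipients it read 12.60 and 12.67 with the combination, against 11.66 and 11.66 with vehicle. It rose by 0.79 ± 0.11 (adjusted p = 0.000231) and 0.98 ± 0.12 (adjusted p = 0.000145). Ctsa, protective protein and carboxypeptidase, rose by 0.45 ± 0.10 and 0.54 ± 0.11.

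Among the cysteine proteases Ctsl and Ctsk fell in pmel-1 recipients and Ctsz rose in control recipients. Ctsl, cathepsin L, read 12.75, 12.82 and 13.14 with the combination, 13.08 and 12.63 with dabrafenib and 13.19 and 13.17 with trametinib, against 13.77 and 13.69 with vehicle in pmel-1 recipients. The control recipients' tumours had 13.26 and 13.17 with the combination, against 13.51 and 13.58 with vehicle. It was below the vehicle arrays on each drug-treated array, falling by 0.83 ± 0.14 (adjusted p = 0.000767) with the combination in pmel-1 recipients, and its change in control recipients was -0.33 ± 0.16 (adjusted p = 0.128). A dimmer probe set of Ctsl changed by 0.14 and −0.07. Ctsk, cathepsin K, a collagen-degrading protease known from osteoclasts and fibroblasts, read 8.68, 8.92 and 8.97 with the combination, 9.03 and 9.14 with dabrafenib and 9.10 and 8.91 with trametinib, against 9.70 and 9.43 with vehicle in pmel-1 recipients, where every drug-treated array was below the vehicle arrays. The readings in control recipients were 9.43 and 9.45 with the combination, against 9.11 and 9.15 with vehicle, with both combination arrays above both vehicle arrays. It fell by 0.71 ± 0.12 (adjusted p = 0.000575) in pmel-1 recipients, and its change in control recipients was 0.31 ± 0.13 (adjusted p = 0.0864). Ctsb and Ctsh passed the test in none of the drug comparisons. Ctsz passed it with the combination in control recipients (0.35 ± 0.12 (adjusted p = 0.0444)) but not in pmel-1 recipients (0.04 ± 0.11 (adjusted p = 0.788)), and the difference between these effects did not pass (-0.31 ± 0.17 (adjusted p = 0.394)).

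Of the 8 glycan-degrading enzymes 4 rose and 1 fell with the combination in pmel-1 recipients, and 3 rose and 0 fell in control recipients. Naglu, which removes N-acetylglucosamine from heparan sulfate, read 10.29, 10.39 and 10.36 with the combination, 10.37 and 10.36 with dabrafenib and 10.03 and 10.02 with trametinib, against 9.74 and 9.72 with vehicle in pmel-1 recipients. Control recipients gave 10.47 and 10.09 with the combination, against 9.53 and 9.11 with vehicle. It rose by 0.62 ± 0.14 (adjusted p = 0.00332) and 0.96 ± 0.15 (adjusted p = 0.000553). Hexa, a hexosaminidase subunit that degrades gangliosides, rose by 0.91 ± 0.09 (adjusted p = 1.84e-05) and 0.61 ± 0.09 (adjusted p = 0.000529). Sgsh, a sulfatase of heparan sulfate breakdown, rose by 0.50 ± 0.11 and 0.43 ± 0.12, and Gaa, which degrades glycogen, by 0.42 ± 0.10 in pmel-1 recipients (0.26 ± 0.11 in control recipients, not past the test).

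Gla, alpha-galactosidase A, whose loss causes Fabry disease, read 7.65, 8.09 and 7.82 with the combination, 7.70 and 7.77 with dabrafenib and 7.77 and 7.77 with trametinib, against 8.76 and 8.59 with vehicle in pmel-1 recipients. Its values in control recipients were 8.13 and 7.42 with the combination, against 8.69 and 8.14 with vehicle. The groups did not overlap in either kind of recipient, but in control recipients the nearest combination and vehicle arrays read almost the same. It fell by 0.82 ± 0.21 (adjusted p = 0.00818) in pmel-1 recipients, and its change in control recipients was -0.64 ± 0.23 (adjusted p = 0.0525). Without vehicle replicate 1 the first was −0.73 (adjusted p = 0.0698), and a second probe set changed by −0.47 and 0.13. Glb1, Gusb and, with the combination, Neu1 did not pass the test.

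Of the 3 genes of lipid handling 2 rose with the combination in each kind of recipient. Psap, the precursor of the saposins that present lipids to hydrolases, read 13.34, 13.34 and 13.25 with the combination, 13.21 and 13.38 with dabrafenib and 13.30 and 13.20 with trametinib, against 12.22 and 12.14 with vehicle in pmel-1 recipients. In control recipients it read 12.68 and 12.86 with the combination, against 11.94 and 11.85 with vehicle. All drug-treated arrays were well above the vehicle arrays, and the rises were 1.13 ± 0.10 (adjusted p = 1.08e-05) (2.18-fold) and 0.88 ± 0.11 (adjusted p = 0.000124). Npc2, which hands cholesterol to NPC1, rose by 0.56 ± 0.10 and 0.35 ± 0.10. Lipa, the acid lipase, changed by 0.04 ± 0.14 and -0.00 ± 0.16. Grn, progranulin, a secreted and lysosomal protein that binds prosaposin, read 13.23, 13.26 and 13.04 with the combination, 12.89 and 13.17 with dabrafenib and 13.06 and 12.92 with trametinib, against 12.00 and 12.10 with vehicle in pmel-1 recipients. The arrays of control recipients read 12.62 and 12.71 with the combination, against 11.86 and 11.99 with vehicle. It was higher on every drug-treated array than on any vehicle array and rose by 1.13 ± 0.11 (adjusted p = 2.80e-05) and 0.74 ± 0.13 (adjusted p = 0.000952).

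Tfeb itself, the factor that binds the CLEAR motif, read 9.23, 9.30 and 9.34 with the combination, 9.16 and 9.31 with dabrafenib and 9.42 and 9.43 with trametinib, against 8.66 and 8.51 with vehicle in pmel-1 recipients. The control recipients' tumours had 9.29 and 9.12 with the combination, against 8.47 and 8.28 with vehicle. Every drug-treated array was above every vehicle array. It rose by 0.71 ± 0.10 (adjusted p = 0.00025) in pmel-1 recipients and by 0.83 ± 0.11 (adjusted p = 0.000233) in control recipients. Arrays measure its transcript, not where the protein lies or its phosphorylation.

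The combination in pmel-1 and in control recipients shares no array, so both can be set against each other. Of the 46 genes 23 rose in both and 2 fell in both (Atp6v1e1 and Atp6v1h), and 0 were called in opposite directions. These 25 genes are 80.6% of the 31 called in pmel-1 recipients and 83.3% of the 30 called in control recipients, against 60.0% and 77.4% for all genes tested. Across the 46 genes the changes in pmel-1 and control recipients correlated with r = 0.80 and rho = 0.78, against 0.82 and 0.78 across all genes tested, as a description across genes, which are not independent. Normalisation and array type are common to both.

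**Figure D3:**
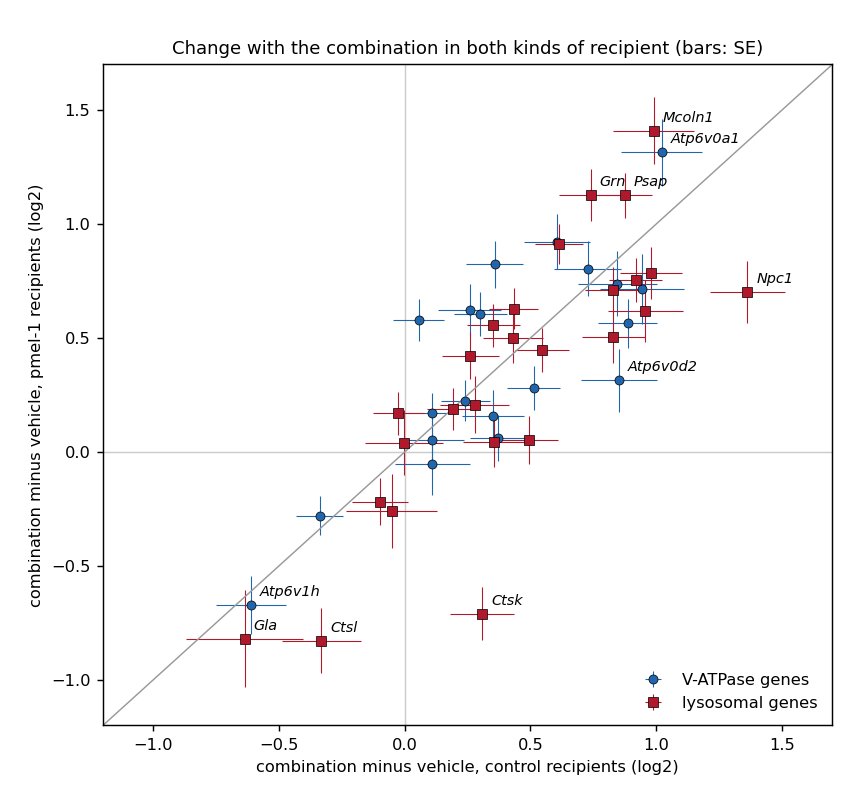
Log2 fold change with the combination in pmel-1 recipients (vertical) against that in control recipients (horizontal), 1 point per gene, with V-ATPase and lysosomal genes marked apart. Bars are SE and the grey diagonal marks equal change. Most points lie at the upper right, Npc1 is farthest to the right and Ctsk lies below 0 in pmel-1 and above 0 in control recipients. The vehicle values of Atp6v0d2 are under the background level, save 1 in pmel-1 recipients, so its point shows no measured size.

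The difference between the effects in pmel-1 and control recipients was tested itself, as the interaction of transfer and combination. By limma 0 of 20 V-ATPase genes passed (3 at an unadjusted p under 0.05) and 1 of 26 lysosomal genes (6 at an unadjusted p under 0.05), against 0.283% of all genes. The 1 gene was Ctsk, at -1.02 ± 0.17 (adjusted p = 0.0498). Next in order of p among the V-ATPase genes were Atp6v1c1 (0.52 ± 0.14 (adjusted p = 0.139)), Atp6v0b (0.46 ± 0.15 (adjusted p = 0.198)), Atp6v0d2 (adjusted p = 0.236, with no size since its control vehicle arrays were under background) and Atp6v1b2 (0.37 ± 0.17 (adjusted p = 0.32)). Among the lysosomal genes Npc1, Cln3 (-0.44 ± 0.16 (adjusted p = 0.214)) and Ctsl (-0.50 ± 0.21 (adjusted p = 0.284)) followed Ctsk. The Ctsk call was just inside the threshold and was lost in 11 of the 13 fits that left out 1 array, all but those without dabrafenib replicate 1 or 2, at values between −1.15 and −0.89.

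Fibroblast and osteoclast markers are given beside Ctsk because both cell types make it. With the combination in control recipients 2 of 7 fibroblast markers rose (median 1.24), against 1 of 7 in pmel-1 recipients (median 1.02). Of all genes 18.7% and 24.3% rose in these comparisons. Under the combination 1 of 7 was lower in pmel-1 than in control recipients (median −1.11), against 1.58% of all genes. Of 4 osteoclast markers 2 were tested and 0 passed, and Ocstamp and Calcr were under the background level on every array. The part of these cells in the Ctsk result was not tested.

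Each drug alone also raised more of the genes than it lowered. These comparisons share their vehicle arrays with each other and with the combination in pmel-1 recipients, so their values are given side by side. With dabrafenib against vehicle 12 of 20 V-ATPase genes rose and 1 fell (median 0.48), and 15 of 26 lysosomal genes rose and 3 fell (median 0.38), against 21.8% and 19.6% of all genes. With trametinib against vehicle 10 of 20 V-ATPase genes rose and 1 fell (median 0.32), and 14 of 26 lysosomal genes rose and 3 fell (median 0.47), against 19.5% and 19.1% of all genes. By class, V0 had 6 and 4 of 7 up with dabrafenib and trametinib, V1 had 5 and 5 of 11 up with 1 down in each, and the lysosomal membrane 4 and 4 of 5 up.

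Atp6v0a1 rose by 1.42 ± 0.16 with dabrafenib and 0.98 ± 0.16 with trametinib. Mcoln1 rose by 1.37 ± 0.16 and 1.13 ± 0.16, Psap by 1.11 ± 0.11 and 1.07 ± 0.11, and Grn by 0.98 ± 0.13 and 0.94 ± 0.13. Gla fell by 0.94 ± 0.23 with dabrafenib and 0.90 ± 0.23 with trametinib, Ctsl by 0.87 ± 0.16 and 0.55 ± 0.16, and Ctsk by 0.48 ± 0.13 and 0.56 ± 0.13. Neu1, a sialidase, passed the test with trametinib (0.50 ± 0.14 (adjusted p = 0.0129)) but not with dabrafenib (0.19 ± 0.14 (adjusted p = 0.303)), and their difference did not pass (-0.31 ± 0.14 (adjusted p = 0.399)). Sgsh and Naglu rose with dabrafenib (0.68 ± 0.12 and 0.63 ± 0.15), and their values with trametinib were 0.17 ± 0.12 and 0.30 ± 0.15. The largest difference between the drugs was that of Sgsh, at 0.52 ± 0.12 (adjusted p = 0.0801).

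Set against each other directly, dabrafenib and trametinib gave 0 called genes of 20 and 0 of 26 by limma, with 2 and 3 at an unadjusted p under 0.05, against 0.776% of all genes. The 95% intervals of the difference lay between −0.67 and 0.79 over the 46 genes, so a difference of 2-fold was outside each of them. The combination against trametinib gave 0 and 0 called, with 3 and 3 at an unadjusted p under 0.05, against 1.1% of all genes, with intervals between −0.61 and 0.66. Against dabrafenib it gave 0 and 0, with 0 and 0 unadjusted, and 0% of all genes, with intervals between −0.49 and 0.58. A p that misses the threshold does not show that the drugs act alike, and the intervals give the sizes these arrays leave possible.

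**Figure D4:**
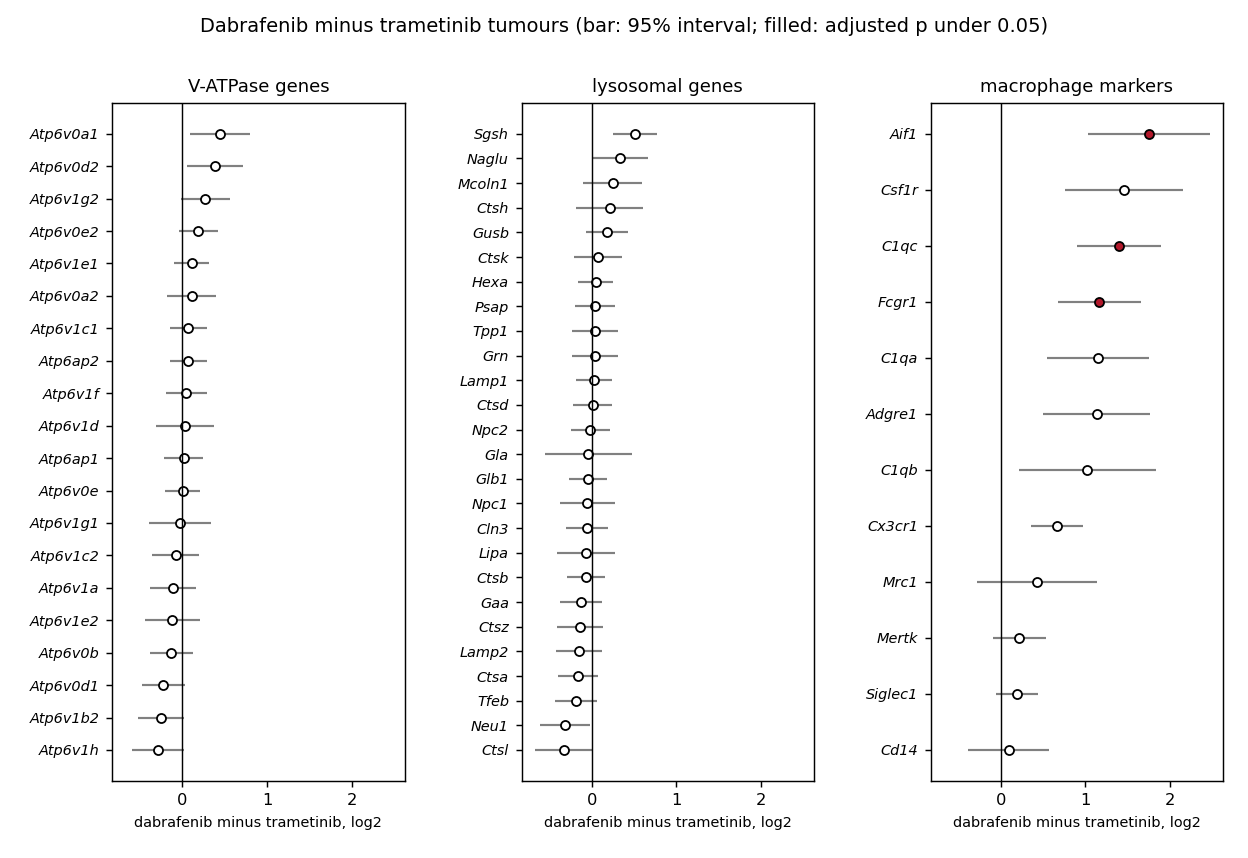
Dabrafenib minus trametinib on the log2 scale in pmel-1 recipients for the V-ATPase genes (left), the lysosomal genes (middle) and 12 macrophage markers (right), 1 point per gene with its 95% interval, filled where the adjusted p is under 0.05. No point of the 46 genes is filled, and those of Aif1, C1qc and Fcgr1 among the macrophage markers are.

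The transfer itself was compared under vehicle and under the combination. Under vehicle, pmel-1 against control recipients, 0 of 20 and 0 of 26 genes passed by limma (2 and 7 at an unadjusted p under 0.05), against 0% of all genes (1822 genes at an unadjusted p under 0.05). The medians were 0.09 and 0.15, against −0.02 for all genes. Under the combination 2 of 20 V-ATPase genes were higher in pmel-1 recipients and 0 lower, and 2 of 26 lysosomal genes were higher and 1 lower, against 2.66% and 1.58% of all genes. They were Atp6v0b (0.48 ± 0.10 (adjusted p = 0.0315)), Atp6v1b2 (0.46 ± 0.11 (adjusted p = 0.0491)), Psap (0.54 ± 0.10 (adjusted p = 0.0153)), Grn (0.51 ± 0.11 (adjusted p = 0.0355)) and, lower, Ctsk (-0.58 ± 0.12 (adjusted p = 0.0234)). Each of the 5 calls was lost when at least 1 array was left out, without control combination replicate 2 for all of them (adjusted p 0.151 to 0.261), and the counts were between 0 and 5 for the V-ATPase genes and 0 and 4 for the lysosomal genes over the fits that left out 1 array. The same calls ended when the 3′ over 5′ ratio entered the fit (0 and 0), where 46 of all genes passed, against 584 without it.

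The macrophage level, taken as the mean log2 value of 12 macrophage markers that are not lysosomal genes, also moved with treatment. It was 8.93, 9.29 and 9.06 with the combination, 8.82 and 9.43 with dabrafenib and 8.42 and 8.06 with trametinib, against 7.94 and 8.10 with vehicle, in pmel-1 recipients. In control recipients it was 8.13 and 8.39 with the combination, against 7.72 and 7.76 with vehicle. It was thus high with dabrafenib and the combination in pmel-1 recipients, while trametinib arrays overlapped the vehicle arrays. Of the 12 markers 8 rose with the combination (median 1.50), 9 with dabrafenib (median 1.54) and 0 with trametinib, where 1 fell (median 0.34), and 4 rose with the combination in control recipients (median 0.47). Of all genes 24.3%, 21.8%, 19.5% and 18.7% rose in these comparisons, and 19.1% fell with trametinib.

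Single markers were not all alike. Of the 12 markers 9 had positive changes with the combination, 10 with dabrafenib and 8 with trametinib in pmel-1 recipients. With the combination in control recipients 10 were positive. The lowest changes were −0.08, −0.62, −1.05 and −0.24 in this order. Csf1r, the receptor for macrophage growth factor, changed by 1.97 ± 0.29 with the combination, 2.26 ± 0.32 with dabrafenib and 0.80 ± 0.32 with trametinib in pmel-1 recipients, and by 1.13 ± 0.32 with the combination in control recipients. The trametinib value did not pass the test (adjusted p = 0.0664). The complement gene C1qc changed by 1.44 ± 0.21, 1.58 ± 0.23 and 0.18 ± 0.23 with the same treatments of pmel-1 recipients and by 0.93 ± 0.23 in control recipients. Of these, C1qc was higher with dabrafenib than with trametinib (1.39 ± 0.23 (adjusted p = 0.0248)), as were Aif1 and Fcgr1. In bulk tumour RNA fewer cells of a type and less RNA per cell cannot be told apart.

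The levels of the V-ATPase and lysosomal genes were high on the arrays of every drug treatment, trametinib included. The mean log2 level over the 20 V-ATPase genes was 11.01, 11.07 and 11.07 with the combination, 11.00 and 11.08 with dabrafenib and 11.00 and 11.03 with trametinib, against 10.66 and 10.65 with vehicle, in pmel-1 recipients. For the 26 lysosomal genes it was 11.08, 11.21 and 11.20, 11.15 and 11.14 and 11.15 and 11.13 with these treatments, against 10.84 and 10.78 with vehicle. In control recipients the V-ATPase level was 10.95 and 10.93 with the combination, against 10.63 and 10.48 with vehicle, and the lysosomal level 11.13 and 11.07, against 10.70 and 10.61. Dabrafenib and trametinib arrays overlapped in the V-ATPase level and lay close together in the lysosomal level. Of the 12 macrophage markers 3 were higher with dabrafenib than with trametinib (median 1.08). None of the 46 genes was called in either direction, which is near the share of 0.776% over all genes.

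Markers of other cells moved as well, and those of pigment cells moved with the V-ATPase and lysosomal genes under each treatment. Of 8 pigment cell markers tested, such as Tyr and Dct of pigment synthesis, 6 rose with the combination (median 0.90), 7 with dabrafenib (median 0.94) and 6 with trametinib (median 0.67) in pmel-1 recipients. With the combination in control recipients 6 rose (median 0.84), and 0 fell in any of these comparisons. Their mean log2 level lay between 12.12 and 12.34 on the drug-treated arrays, against between 10.60 and 10.89 on the vehicle arrays. Of 9 general leukocyte markers 8 rose with the combination, 8 with dabrafenib and 3 with trametinib in pmel-1 recipients, and 5 with the combination in control recipients. Of 5 T cell markers 4, 3 and 0 rose with these treatments of pmel-1 recipients and 0 in control recipients. Beside these lists, 24.3%, 21.8% and 19.5% of all genes rose with these treatments of pmel-1 recipients, and 18.7% in control recipients. The part of pigment cells, leukocytes and T cells in the results for the 46 genes was not tested.

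**Figure D5:**
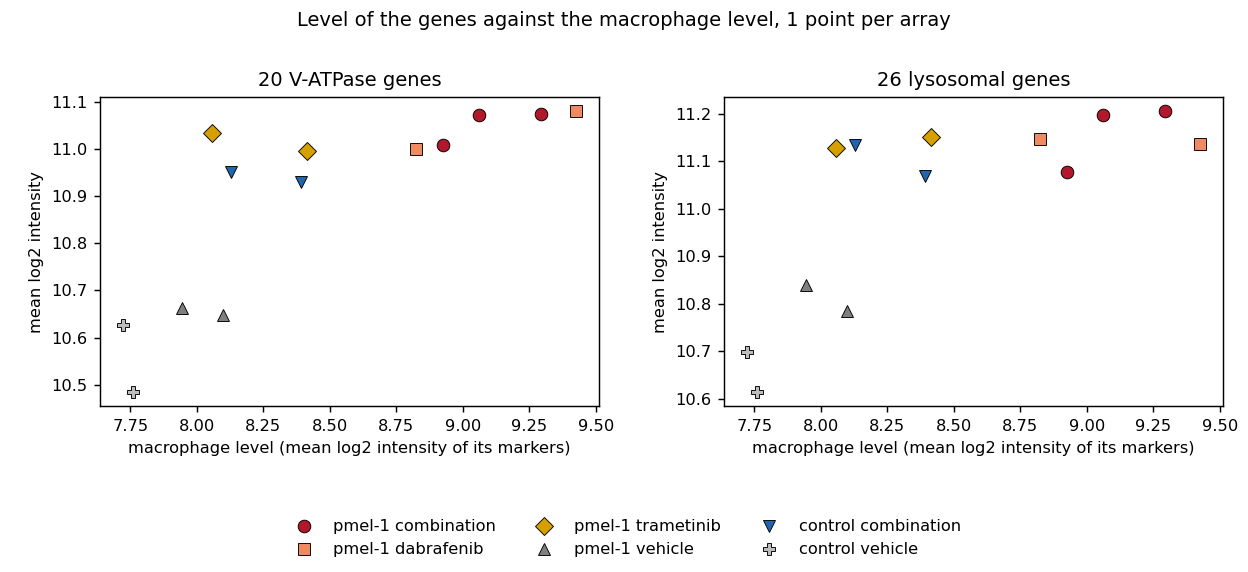
Mean log2 level of the V-ATPase genes (left) and of the lysosomal genes (right) against the macrophage level, 1 point per array, coloured by group. The trametinib and control combination arrays have lower macrophage levels than the other drug-treated arrays, and in both panels every drug-treated array lies above every vehicle array.

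With the macrophage level as a covariate in the fit, the trametinib counts were the same, with 10 V-ATPase genes up and 1 down and 14 lysosomal genes up and 3 down (medians 0.34 and 0.45). The count over all genes changed little there as well, with 4919 called, against 5323 without the covariate. In control recipients given the combination 8 V-ATPase genes were up and 1 down, and 13 lysosomal genes up and 0 down (medians 0.38 and 0.42). Over all genes 3226 were called in that comparison, against 4874 without the covariate. With the combination in pmel-1 recipients, whose macrophage level lay apart from that of vehicle, 0 V-ATPase and 1 lysosomal gene passed, with 9 and 11 at an unadjusted p under 0.05. The median changes there were 0.39 and 0.41, but the median SE went up to 0.23, against 0.11 without the covariate for both classes, and the count over all genes went down to 439, against 6282. With dabrafenib 0 and 0 passed (5 and 9 unadjusted), with medians of 0.35 and 0.40 and 395 of all genes.

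The slope of each gene on the macrophage level within groups, from the same fit, passed the test for 0 of 20 V-ATPase genes (median slope 0.08) and 0 of 26 lysosomal genes (median 0.02), with 2 and 2 at an unadjusted p under 0.05. It passed for 6 of the 12 macrophage markers themselves (median 1.21), but the level is their own mean, so this was built in. Among all 13785 genes the slope passed for 114 upward and 25 downward, with 2271 at an unadjusted p under 0.05. So few genes passed at all that the counts of 0 do not set the V-ATPase and lysosomal genes apart. With the 3′ over 5′ ratio as the covariate instead, 8 V-ATPase genes and 13 lysosomal genes passed with the combination in pmel-1 recipients, 5 and 11 with dabrafenib, 10 and 14 with trametinib and 14 and 17 with the combination in control recipients. Over all genes 2756, 2511, 3371 and 5362 passed in these comparisons, against 6282, 5709, 5323 and 4874 without a covariate. Without the 4 arrays with adipocyte or muscle transcripts the counts were 11 and 18 with the combination in pmel-1 recipients. That fit left a single array with dabrafenib, with trametinib and with vehicle in control recipients. No counts are given for the comparisons that use those groups.

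Among 9 further genes of the pump and its assembly, 5 rose and 2 fell with the combination in pmel-1 recipients, against 24.3% and 21.2% of all genes. In control recipients 4 rose and 0 fell, against 18.7% and 16.7% of all genes. Dmxl2 and Wdr7 encode the rabconnectins, which take part in assembly of V1 on V0. Dmxl2 read 12.23, 12.71 and 12.44 with the combination, 12.29 and 12.53 with dabrafenib and 12.70 and 12.53 with trametinib, against 10.58 and 10.66 with vehicle in pmel-1 recipients. Its values in control recipients were 12.31 and 12.32 with the combination, against 10.76 and 10.37 with vehicle. The drug-treated arrays were all well above the vehicle arrays. It rose by 1.84 ± 0.15 (adjusted p = 8.50e-06) and 1.75 ± 0.17 (adjusted p = 2.89e-05), and Wdr7 by 1.05 ± 0.11 and 0.84 ± 0.12. Rogdi, a further partner of these proteins, rose by 0.70 ± 0.10 and 0.68 ± 0.11 and was higher with dabrafenib than with trametinib (0.69 ± 0.11 (adjusted p = 0.0255)). Tcirg1, the a3 subunit form known from osteoclasts, rose by 0.92 ± 0.11 and 0.34 ± 0.12. The assembly factors Ccdc115 and Tmem199 were the genes that fell in pmel-1 recipients, by 0.65 ± 0.14 and 0.73 ± 0.17. They are named after their values were seen, as are the falling genes of the next list.

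Of 42 further lysosomal genes 24 rose and 2 fell with the combination in pmel-1 recipients (median 0.46), against 24.3% and 21.2% of all genes. In control recipients 25 rose and 1 fell (median 0.54), against 18.7% and 16.7%. With dabrafenib 25 rose and 2 fell, against 21.8% and 19.6%, and with trametinib 22 rose and 2 fell, against 19.5% and 19.1%. Smpd1, acid sphingomyelinase, read 11.62, 11.97 and 11.88 with the combination, 11.68 and 11.73 with dabrafenib and 11.88 and 11.68 with trametinib, against 9.97 and 10.02 with vehicle in pmel-1 recipients. Control recipients gave 11.77 and 11.53 with the combination, against 9.79 and 9.76 with vehicle. The groups lay far apart, and it rose by 1.83 ± 0.12 (adjusted p = 2.77e-06) and 1.88 ± 0.13 (adjusted p = 4.24e-06). Clcn7, the chloride and proton exchanger, rose by 1.41 ± 0.11 and 1.33 ± 0.12, Ctns, the cystine exporter, by 1.30 ± 0.13 and 1.35 ± 0.14, and Arsa, arylsulfatase A, by 1.18 ± 0.10 and 1.32 ± 0.11. The falls were those of Igf2r, the receptor that sorts hydrolases by mannose 6-phosphate, by 1.43 ± 0.27 in pmel-1 recipients (-0.71 ± 0.29 (adjusted p = 0.0801) in control recipients), and of Gnptab, which makes that tag, by 0.64 ± 0.13 and 0.43 ± 0.14.

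Next come 20 genes of the MiT/TFE factors and of the mTORC1 machinery on the lysosome. With the combination in pmel-1 recipients 12 rose and 3 fell, against 24.3% and 21.2% of all genes. In control recipients 10 rose and 1 fell, against 18.7% and 16.7% of all genes. Mitf rose by 0.47 ± 0.09 (adjusted p = 0.00133) and 0.69 ± 0.10 (adjusted p = 0.000292), and Tfe3 by 0.53 ± 0.09 (adjusted p = 0.00082) and 0.31 ± 0.10 (adjusted p = 0.0326). Tfec, the form of the family found in macrophages, rose by 0.78 ± 0.27 (adjusted p = 0.0327) in pmel-1 recipients, and its change in control recipients was 0.05 ± 0.29 (adjusted p = 0.916). Flcn, folliculin, which with its partners lets mTORC1 phosphorylate TFEB, rose by 0.76 ± 0.12 and 0.71 ± 0.13. Slc38a9, an arginine sensor of the lysosome, rose by 0.72 ± 0.12 and 0.47 ± 0.13. Rptor, the substrate-binding subunit of mTORC1, fell by 0.68 ± 0.09 and 0.59 ± 0.10.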

How the data were processed

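Total RNA of SM1 tumours was measured on 13 Affymetrix mouse arrays in 6 groups. The authors deposited log2 intensities, which RMA in the affy package gave for each probe set, per the submitters' processing notes; the sources used here name no versions. Of 45101 probe sets 34945 have 1 gene symbol, 932 several and 9160 none, and 64 are array controls. Each of the 18193 symbols was represented by its probe set of highest mean (30 of the 46 genes have more than 1). The 13785 genes tested lay over 5.79, the 40th percentile of all values, on 2 arrays or more. Symbols were set against RefSeq gene IDs (0 changed), and 18 symbols of the further lists were not analysed here.

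With limma 3.58.1 in R 4.3.3 a mean per group was fitted for each gene to the 13 arrays (lmFit, contrasts, eBayes, 7 residual degrees of freedom), and p-values were adjusted by Benjamini-Hochberg over all genes tested within each of 10 comparisons. Changes are log2 differences ± SE, and intervals are at 95%. The number of arrays limits the precision. The fit was tested on simulated data. The genes and lists were chosen with earlier results of these data known. Values on every array are given for up to 6 rises and 4 falls per class with the combination, up to 4 genes by the interaction, and 6 anchor genes. Of the other lists the text names up to 4 genes with the smallest p with the combination in pmel-1 recipients and fixed anchors. Alternatives changed the filter, the probe set, the normalisation, the samples fitted, array weights, a replicate block, both covariates and the arrays left out.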

Additional observations from a re-analysis of the deposited data

Results flagged for a closer look

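The change of Ctsk with the combination differed between pmel-1 and control recipients by −1.02 ± 0.17 on the log2 scale (limma, adjusted p = 0.0498), which is why it is listed here: it is the 1 gene of the 46 for which the test of that difference passed. Ctsk changed by -0.71 ± 0.12 in pmel-1 recipients, whereas control recipients gave 0.31 ± 0.13. Under other settings and with single arrays left out the difference was between −1.15 and −0.89, with adjusted p between 0.0353 and 0.332. The median change of fibroblast markers was 1.02 with pmel-1 transfer and 1.24 with control transfer; their part in the result was not tested.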

How the results depend on the processing

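The counts of called V-ATPase and lysosomal genes depended most on the covariates and on which arrays were used. When the 3′ over 5′ ratio entered the fit, the V-ATPase count was 8 with the combination in pmel-1 recipients and 5 with dabrafenib, and the lysosomal count with dabrafenib 11. Over all genes 2756 passed with that combination and 2511 with dabrafenib, against 6282 and 5709 in the main fit. With the macrophage level as a covariate the V-ATPase counts were 0 with the combination in pmel-1 recipients, 9 with the combination in control recipients and 0 with dabrafenib, and the lysosomal counts 1 with the combination in pmel-1 recipients and 0 with dabrafenib. All-gene counts in the order of the V-ATPase counts were 439, 3226 and 395, against 6282, 4874 and 5709 in the main fit. Without the 4 arrays with adipocyte or muscle transcripts, an alternative chosen after seeing the data, the V-ATPase count was 7 with the combination in control recipients and 8 with dabrafenib. The lysosomal interaction count was 0 with median centring, the replicate block, either covariate and these arrays left out. For pmel-1 against control recipients under the combination the V-ATPase count was 1 with no filter, with the mean of all probe sets, with median centring and with array weights, 4 with quantile normalisation, and 0 with only the groups compared, the replicate block, either covariate and these arrays left out. The lysosomal count there was 0 with only the groups compared, the replicate block, either covariate and these arrays left out.

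Leaving out each array in turn gave, for V-ATPase and lysosomal genes, 11 to 14 and 17 to 19 with the combination in pmel-1 recipients, and 8 to 14 and 11 to 16 in control recipients. The V-ATPase count in control recipients was 9 without combination replicate 2 and 8 without combination replicate 3. The ranges were 9 to 13 and 14 to 18 with dabrafenib, and 9 to 11 and 13 to 18 with trametinib. For the interaction they were 0 to 0 and 0 to 1, and for pmel-1 against control recipients under the combination 0 to 5 and 0 to 4. They were 0 to 0 for the comparisons between drug treatments and for the transfer under vehicle. Single calls lost without at least 1 array were 4 of 31 with the combination in pmel-1 recipients and 11 of 30 in control recipients, 9 of 31 with dabrafenib and 8 of 28 with trametinib.

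Each gene was set against its main fit in each comparison and setting. Of these values 10642 kept their side of the threshold, 343 no longer passed and 44 newly passed. Changes of direction where neither fit passed are counted as kept. In 1 case the direction changed and a fit passed. Atp6v1a with the combination in pmel-1 recipients was −0.52 (limma, adjusted p = 0.0442) as the mean of all its probe sets, which disagree. Replicate numbers in the titles were checked as pairs. Differences of same-numbered arrays correlated between −0.51 and 0.28 over 8 pairs of groups. These correlations rest on single arrays and cannot exclude pairing. They gave no sign that samples are paired by the numbers in the titles. With them as a replicate block the V-ATPase and lysosomal counts were 11 and 18 with the combination in pmel-1 recipients, 10 and 15 in control recipients, 0 and 0 for the interaction, 13 and 16 with dabrafenib, 11 and 17 with trametinib and 0 and 0 for the transfer under the combination.

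Values near the background level, such as those of Atp6v0d2, Atp6v1c2 and Atp6v1e2, cannot show falls, and groups of 2 or 3 arrays limit every test. The labels give no batch.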

Other observations

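Autophagy genes make the vesicles that deliver cargo to lysosomes. Of 19 tested 7 rose and 1 fell with the combination in pmel-1 recipients (median 0.23), against 24.3% and 21.2% of all genes. In control recipients 11 rose and 1 fell (median 0.39), against 18.7% and 16.7% of all genes. The fall was that of Atg7, the enzyme that activates the ubiquitin-like proteins of autophagy. It read 8.43, 8.69 and 8.59 with the combination, 8.43 and 8.50 with dabrafenib and 8.47 and 8.47 with trametinib, against 9.38 and 9.69 with vehicle in pmel-1 recipients, and 8.55 and 8.44 with the combination, against 9.67 and 9.26 with vehicle in control recipients. Drug-treated and vehicle arrays were separated, and it fell by 0.96 ± 0.14 (adjusted p = 0.000232) and 0.97 ± 0.15 (adjusted p = 0.000566). Wipi1, which binds the forming membrane, rose by 0.54 ± 0.12 in pmel-1 recipients and 1.14 ± 0.14 in control recipients, Map1lc3a, an LC3 protein, by 0.72 ± 0.17 and 0.72 ± 0.19, and Ulk1, the initiating kinase, by 0.44 ± 0.10 and 0.50 ± 0.10.

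Lysosomal genes that macrophages express most were kept apart from the 46. Of these 6 genes 4 rose with the combination, 4 with dabrafenib and 3 with trametinib in pmel-1 recipients. With the combination in control recipients 5 rose. The shares of all genes that rose were 24.3%, 21.8%, 19.5% and 18.7% in this order. Ctss, cathepsin S of antigen-presenting cells, rose by 1.85 ± 0.25 with the combination in pmel-1 recipients and by 1.04 ± 0.27 in control recipients, and was higher in pmel-1 than in control recipients under the combination (1.59 ± 0.25 (adjusted p = 0.00652)). Laptm5 rose by 2.46 ± 0.32 and 1.02 ± 0.35, with a difference of 2.06 ± 0.32 (adjusted p = 0.00678) between recipients. Lyz2, lysozyme, rose by 1.34 ± 0.27 and 1.10 ± 0.30 and was higher with dabrafenib than with trametinib (1.58 ± 0.30 (adjusted p = 0.0407)). Cd68 rose by 0.90 ± 0.15 (adjusted p = 0.000749) in control recipients, and its change in pmel-1 recipients was 0.34 ± 0.13 (adjusted p = 0.0596).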
